A study of Caenorhabditis elegans with 4 samples.

Results

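Of the 11110 regions in the combined peak list of the ChIP labelled NHR-129, 453 were 1500 bp or wider, or 4.08%. These wide regions were chosen by their width in the combined list alone, on all 6 chromosomes, so their width and the q-value from the same peak call are given as descriptions. Together they spanned 1112 kb of the 5318 kb that the combined list covers, or 20.9%. The lists come from a chromatin immunoprecipitation and sequencing (ChIP-seq) study of Caenorhabditis elegans, with 2 ChIP samples and 2 Input samples (total chromatin), numbered as replicates 1 and 2. All 4 samples were hermaphrodites of strain OP339 at the L2 larval stage, grown at 20 °C. The strain is mutant for unc119(ed3) and carries the transgene wgIs339, in which nhr-129::TY1 EGFP FLAG is linked to a rescuing copy of unc119. The transgene was brought in by bombardment and the strain not outcrossed. Every sample carried it, so an untagged strain was not among them. Per the labels, the fusion protein was seen in head neurons, the pharynx (feeding organ) and seam cells (lateral skin cells), while the chromatin came from whole worms. Peak lists of both ChIP samples and the combined list were analysed, with 7583 peaks for replicate 1 and 7109 for replicate 2. Whether separate cultures gave rise to the replicates is not stated in the labels. All 25802 peak names in the 3 lists began with GEI-11, which names another protein, and 0 contained NHR. The factor is therefore named here only as the labels give it.

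NHR-129 belongs to the nuclear hormone receptors, transcription factors with a zinc-finger DNA-binding domain, a family that is greatly expanded in nematodes. ChIP-seq recovers the DNA crosslinked to such a factor, and a peak caller reports each stretch where ChIP reads exceed a control. A single bound site usually gives a stretch about as long as the sheared fragments. Wider stretches need enriched reads over a longer span, or several neighbouring stretches reported as one. In each of the 3 lists here the smallest distance between neighbouring peaks was 200 bp. Where a replicate list holds a peak in a wide region, it shows whether that region was called in 1 piece or in several.

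Most wide regions were far shorter than the extremes. Widths ran from 1501 to 7758 bp with a median of 2151 bp (interquartile range 1734 to 2812 bp). There were 199 members under 2000 bp, 95 of 3000 bp or more and 14 of 5000 bp or more. Just inside the limit lay II:2195531-2197031 (1501 bp), IV:2993031-2994533 (1503 bp) and V:14003313-14004820 (1508 bp). Just outside lay V:9424425-9425923, III:5842671-5844167 (1497 bp) and X:15339624-15341120 (1497 bp). These regions on both sides of the limit had -log10 q-values between 16.3 and 154, and V:9424425-9425923 held 2 peaks in each replicate where the other 5 held 1. All coordinates are those of WormBase WS220, as the lists give them. No gene is assigned to any region, because an annotation on these coordinates was not used here.

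The wide regions were found in nearly every case by both replicates. Peaks of both replicate lists overlapped 432 of the 453 wide regions, which is 95.4% with a 95% Wilson interval of 93.0 to 96.9%. Overlap here means 1 bp or more, and the interval, like all others below, covers counting error only. Over all combined regions that share was 48.5%. A further 13 members (2.87%) were overlapped by 1 replicate list only, 7 by replicate 1 and 6 by replicate 2, and 8 (1.77%) by neither. How the combined list was made is not stated, so the replicate lists cannot be taken as independent of it.

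In 255 members, or 56.3% (51.7 to 60.8%), each replicate had exactly 1 peak. Another 177 members held several peaks in at least 1 replicate list, or 39.1% (34.7 to 43.6%), against 3.38% of all combined regions. The members thus made up 47.2% of the 375 combined regions with several replicate peaks. Length gives room for several peaks, so the choice by width favours both of these contrasts. Of the 177, 72 were split in both lists (15.9% of members, 12.8 to 19.5%), 69 in replicate 2 alone and 36 in replicate 1 alone. The most frequent split was 1 peak in replicate 1 and 2 in replicate 2, with 63 members, followed by 2 in each with 44 and by 2 and 1 with 35. Joining also ran the other way in a few places: 3 replicate 2 peaks and 0 replicate 1 peaks reached over a pair of members, which tied 6 members together. One of them, 5683 bp wide, covered both III:61902-64276 and III:64481-67684, which the combined list and replicate 1 kept apart.

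**Figure D1:**
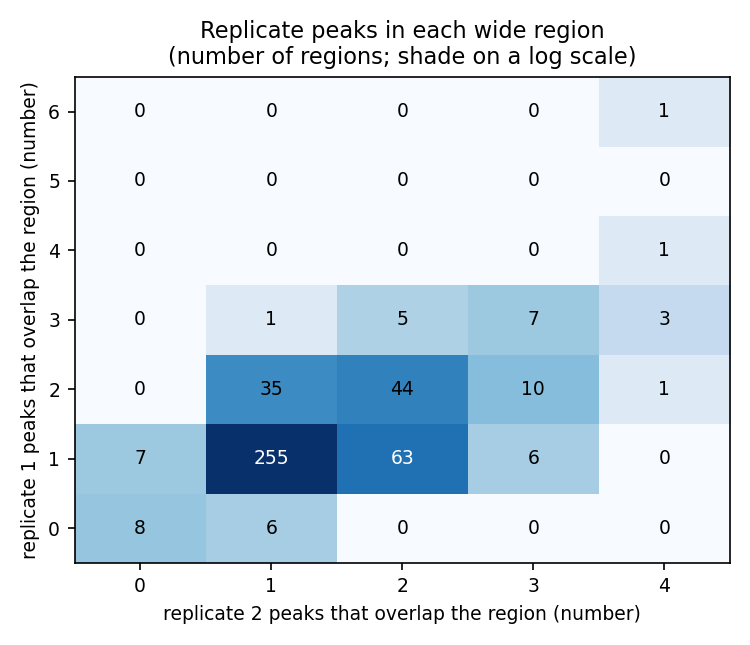
Number of wide regions by the number of replicate 1 peaks (vertical axis) and of replicate 2 peaks (horizontal axis) that overlap them by at least 1 bp, with shading on a log scale. The cell with 1 peak in each list holds 255 of the 453 regions, and the cells without any peak of 1 or both lists hold 21 (8, 7 and 6).

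The pieces of a split member lay close together. In replicate 1 the 108 split members had 130 gaps between neighbouring peaks, with a median of 266 bp (interquartile range 222 to 362 bp, highest 1425 bp). In replicate 2 the 141 split members had 176 gaps with a median of 272 bp (232 to 432 bp, highest 1236 bp). Gaps under 300 bp made up 64.6% in replicate 1 and 56.2% in replicate 2, just above the 200 bp that is the smallest gap of the lists. With replicate peaks closer than 500 bp merged first, 8.61% of the members were still split. The widest peak of a split member had a median of 1312 bp in replicate 1 and 1233 bp in replicate 2, and the narrowest 507 bp and 531 bp. Some of the narrowest pieces were tiny, down to 3 bp in replicate 1 and 6 bp in replicate 2.

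Replicate peaks were usually narrower than the wide region they lay in. The median share of a member covered was 88.3% for replicate 1 (interquartile range 72.9 to 97.2%) and 79.2% for replicate 2 (60.5 to 92.3%). In 183 members both replicates covered at least 80%. A replicate peak that was itself 1500 bp or wider overlapped 186 members in both lists and 139 members in 1 list, while 128 members had none. The whole width of a peak counts here, also where it reaches past the region or into a neighbouring member. Replicate 1 had the wider widest peak in 289 of the 432 members found in both lists, and replicate 2 in 143. Where members held a replicate peak, 31.0% had one that reached past an end of the region (138 of 445, 26.9 to 35.5%).

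The single widest region was also among the most broken up. IV:11979111-11986868 (7758 bp, q-value 7.33e-79, rank 389 of the combined list) held 4 peaks in replicate 1 and 4 in replicate 2, which covered 54.1% and 67.9% of it. Within the replicate lists, whose q-values are not compared with the combined one, the best of these pieces had 4.33e-10 and 1.20e-15. Counted from the first base of the region, their positions differed in part between the replicates. The first replicate 1 peak (622 to 1360 bp) ended before the first replicate 2 peak began at 1465 bp. The later replicate 1 peaks each overlapped a replicate 2 peak, such as 4340 to 5762 bp within 3571 to 5836 bp.

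The other 9 of the 10 widest regions had smaller q-values, and their layout varied. II:8741174-8748173 (7000 bp, q-value 7.65e-265, rank 9) had 2 peaks in replicate 1 and 1 in replicate 2, covering 96.5% and 99.1%. X:8016641-8023412 (6772 bp, 5.49e-184, rank 62) had 2 and 4 peaks, covering 96.5% and 77.4%. IV:4468086-4474384 (6299 bp, 1.82e-258) had 1 peak in each, as had X:6250080-6256114 (6035 bp, 1.42e-292), X:11603178-11608602 (5425 bp, 1.45e-136), III:12612119-12617433 (5315 bp, 1.61e-262) and X:12662119-12667290 (5172 bp, 1.33e-170). II:5335261-5340481 (5221 bp, 3.64e-99) had 1 peak in replicate 1, covering 88.2%, and 2 in replicate 2, covering 59.2%. IV:15036686-15041809 (5124 bp, 1.24e-121) had 2 and 1, and replicate 1 covered 58.7% of it where replicate 2 covered 98.9%. In 5 of the 10 widest, therefore, each replicate called a single peak. The widest members of the remaining chromosomes were I:14755478-14760144 (4667 bp, 2 peaks in each list) and V:20776878-20781130 (4253 bp, 3 in each).

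**Figure D2:**
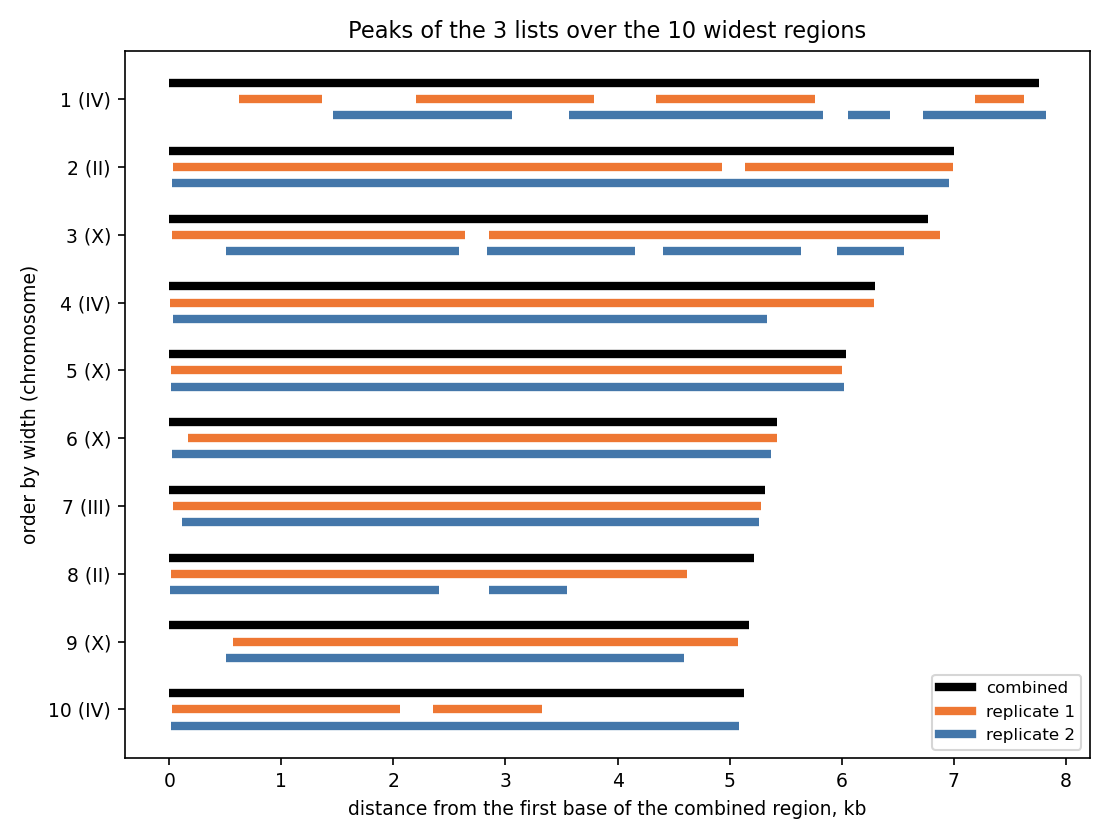
Peaks of the combined list (black), replicate 1 (orange) and replicate 2 (blue) over the 10 widest regions, ordered by width, with the distance from the first base of the combined region in kb on the horizontal axis. The widest region, on IV, is broken into 4 pieces in each replicate, while the fifth, on X, is 1 peak of 5985 bp in replicate 1 and 6011 bp in replicate 2.

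The most peaks in a member were 6 in replicate 1 and 4 in replicate 2, in II:8477054-8481510 (4457 bp, q-value 5.22e-91). After the widest region on IV came 3 members of V with 3 peaks in replicate 1 and 4 in replicate 2. These were V:12811181-12815038 (3858 bp, q-value 7.45e-291, rank 4), V:10042197-10045105 (2909 bp, 6.04e-242, rank 21) and V:7431948-7434533 (2586 bp, 4.31e-135, rank 144).

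By q-value the wide regions sat near the top of the combined list. Their ranks ran from 1 to 10940 with a median of 601, and 291 of them (64.2%, 59.7 to 68.5%) were among the strongest 10.0% of all regions. They held 71 of the first 100 ranks. Ranks count only the regions that the combined list holds, and some of the strongest replicate peaks, described at the end, have no region in it. Where the ranks would begin with those loci present cannot be told. The median -log10 q-value was 60.1 (interquartile range 29.4 to 121), against 8.00 over all combined regions. Width and q-value come from the same call, so this is no separate property. The strongest member was V:5271333-5273600 (2268 bp, q-value 2.92e-294), the first of the list as deposited, with 1 peak in replicate 1 and 2 in replicate 2. Of the 10 members with the smallest q-values, 5 lay on V. Besides regions named above, they comprised V:16591854-16595719 (3866 bp, 1.45e-290), V:10937331-10939460 (2130 bp, 2.66e-281), II:11633616-11636227 (2612 bp, 1.18e-273), IV:14619457-14624353 (4897 bp, 2.78e-262) and V:6098649-6101889 (3241 bp, 1.52e-260). V:10937331-10939460 shows how far the replicates could differ in layout: 1 peak covered 91.0% of it in replicate 1, while 3 peaks covered 45.0% in replicate 2.

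The 21 wide regions that a replicate list lacked all had -log10 q-values under 14, though others as weak were found in both lists (14 of the 26 members between 5 and 10). The 8 members in neither list had -log10 q-values from 2.10 to 9.94 and widths from 1544 to 3522 bp. They were I:6581803-6583346, I:10753845-10757366, III:351383-353316, III:6166487-6168260, IV:5651827-5653460, IV:17332935-17335377, X:5354189-5355793 and X:8023763-8025346. The widest of them, I:10753845-10757366 (3522 bp, q-value 1.16e-10), was wider than 3 in 4 members. The 13 members in 1 list had -log10 q-values from 3.74 to 13.7, and the widest was IV:363928-366871 (2944 bp), which a single replicate 1 peak covered to 99.5%. The 4 next widest, IV:291823-293696, X:5780692-5782534, III:5140493-5142313 and II:42385-44141, were 1874 to 1757 bp wide. None of these 21 members lay on V, where even the weakest wide region had a -log10 q-value of 30.6.

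Wide regions were compared with the 5113 combined regions of 300 to 800 bp in the same classes of q-value. No test was made, because regions of one list are not replicates, and the intervals cover counting error only. At equal q-value the share that both replicates overlapped by 1 bp or more differed little between wide and narrower regions. A longer region meets this limit more easily. For -log10 q-values from 5 to 10, both replicates overlapped 14 of 26 wide regions (53.8%, 35.5 to 71.2%) and 579 of 1114 narrower ones (52.0%, 49.0 to 54.9%). From 10 to 20 the shares were 92.1% of 38 and 93.8% of 1204, and from 20 upward 100% of the wide and at least 99.5% of the narrower regions. Weighted to the q-value classes of the wide regions, the narrower ones reached 95.3%, so the wide share differed by 0.0581 percentage points (interval -2.29 to 1.64, from the wide share alone). From 2 to 5 the replicates shared 0 of the 6 wide regions and 1.08% of 1297 narrower ones. The part covered differed more in weak classes. From 5 to 10, the median covered by replicate 1 was 57.1% for wide and 89.1% for narrower regions. For replicate 2 it was 25.2% and 79.3%. From 10 to 20 these medians were 59.8% and 89.9%, then 49.1% and 84.1%. Above 100 they were 94.8% and 94.5%, then 87.6% and 90.7%.

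Counted per region, being split was far more frequent among the wide regions in each class above a -log10 q-value of 10. From 10 to 20, 18.4% of wide regions held several peaks in a replicate (9.22 to 33.4%) against 2.08% of narrower ones. From 20 to 40 the shares were 35.5% and 3.06%, from 40 to 100 49.0% and 3.36%, and above 100 45.3% and 2.38%. At 10 or less, 0 of 32 wide regions were split (0 of 6 and 0 of 26). Length gives room for several peaks, and regions of 300 to 800 bp leave little. Choice by width alone thus favours this direction, and how much of the difference is separate from it cannot be told. Per kb, the order was reversed in each class above 10. From 10 to 20, replicate 1 had 0.570 peaks per kb in wide and 2.09 in narrower regions, and above 100 it had 0.506 and 1.55. For replicate 2 the values were 0.504 and 2.04, then 0.521 and 1.59. This rate depends on width as well, because 1 peak counts for less per kb in a longer region. Against regions from 800 bp to just under 1500 bp in place of 300 to 800 bp, the weighted difference in split regions was 23.6 percentage points, where it had been 36.4. With replicate peaks closer than 500 bp merged, the weighted difference was 8.61 points, which is the whole split share of the wide regions. Regions of 300 to 800 bp leave little room for peaks that far apart, so length largely fixed this outcome. With replicate 1 alone and no merging, the weighted difference was 22.8 points.

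**Figure D3:**
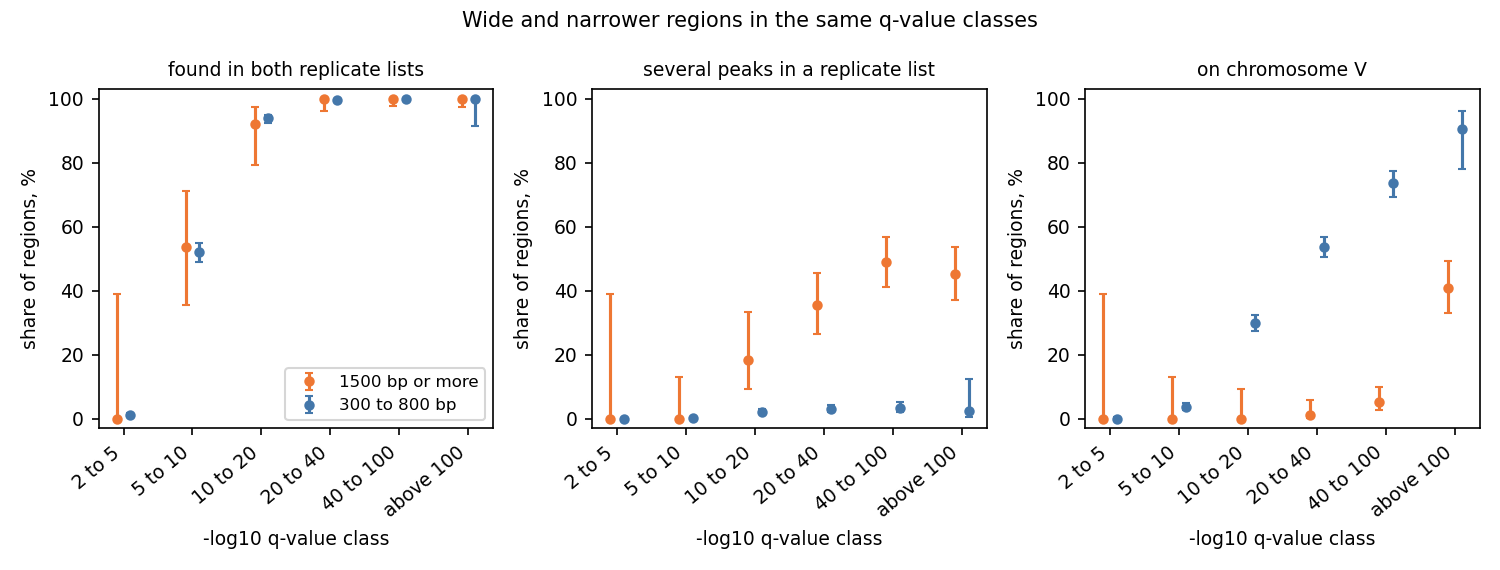
Share of regions in % (points, with 95% Wilson intervals) found in both replicate lists, with several peaks in at least 1 replicate list, and on chromosome V, for wide regions (orange) and regions of 300 to 800 bp (blue) by class of -log10 q-value. The first shares lie close together, the split share is higher for wide regions above 10, and the share on V is lower for wide regions above 10.

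The wide regions were spread far more evenly over the chromosomes than the list as a whole. IV held 88, X 79, I 77, III 77, II 67 and V 65. V thus held 14.3% of the wide regions (11.4 to 17.9%), where it held 42.3% of all combined regions. Its number was close to that of II, and the list lacks wide replicate peaks of V. Of these, 16 peaks of replicate 1 and 17 of replicate 2 had no combined region, many at the same loci. Per Mb up to the last listed peak, V had 3.11 wide regions, while values elsewhere ran from 4.39 on II to 5.59 on III. Of the V regions 1.38% were wide (1.09 to 1.76%), against between 5.01% on IV (4.08 to 6.13%) and 7.08% on III (5.70 to 8.76%) elsewhere. At equal q-value the gap was larger still. Weighted to the q-value classes of the wide regions, 65.9% of the narrower regions lay on V, a difference of -51.6 percentage points for the wide ones. The class above 100, which holds 137 of the wide regions, has only 42 narrower ones to compare with. Against regions from 800 bp to just under 1500 bp the difference was -24.8 points, in the same direction.

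**Figure D4:**
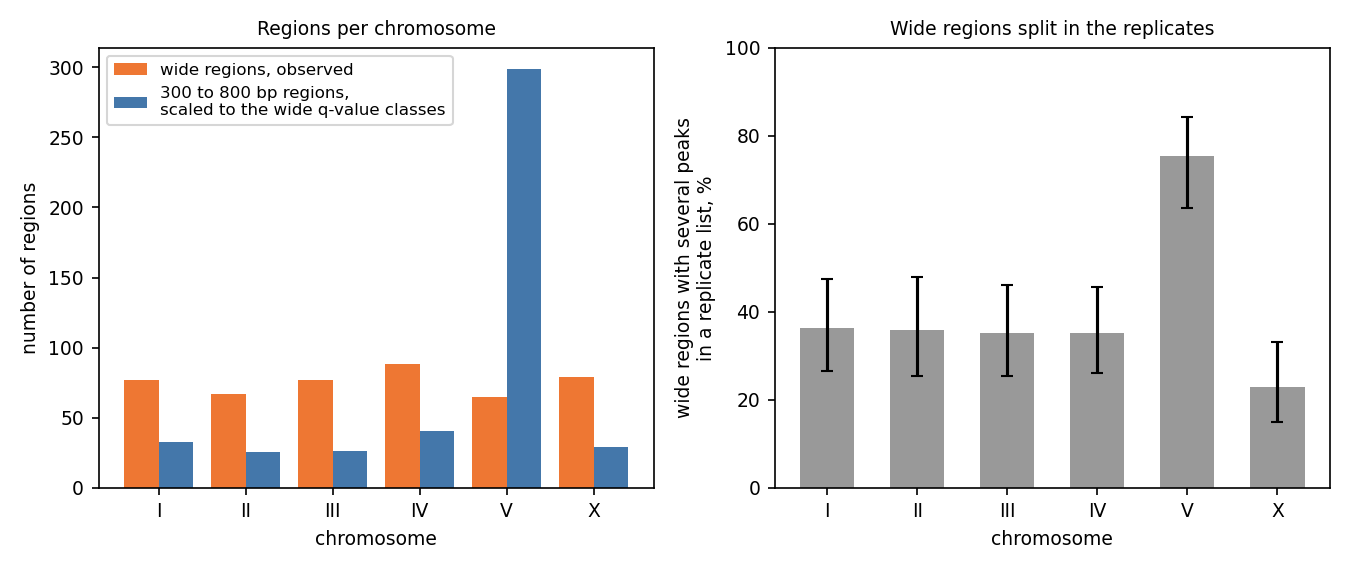
Left, number of wide regions per chromosome (orange) and the number that regions of 300 to 800 bp give when scaled to the q-value classes of the wide regions (blue). Right, share of wide regions with several peaks in at least 1 replicate list in %, with 95% Wilson intervals. V has 65 wide regions where the scaled number is 299, and 75.4% of its wide regions are split.

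Width went along with strength on V and elsewhere. Over all combined regions, Spearman's rho between width and -log10 q-value was 0.90 on V (4698 regions) and 0.61 on the other chromosomes (6412 regions). Among the wide regions the values were nearer to each other, 0.59 on V (65 regions) and 0.50 elsewhere (388 regions). This is a description over regions that share libraries and a peak call. Only 1 of the 65 wide regions on V had a -log10 q-value of 40 or less, while 162 of the 388 elsewhere did. The median -log10 q-value of wide regions was 154 on V and 50.8 elsewhere. Above a value of 100, V had 137 regions, of which 40.9% were wide (33.0 to 49.2%), and the other chromosomes 104, of which 77.9% were wide (69.0 to 84.8%). In that class the wide regions of V had a median width of 2038 bp and those elsewhere 2905 bp.

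**Figure D5:**
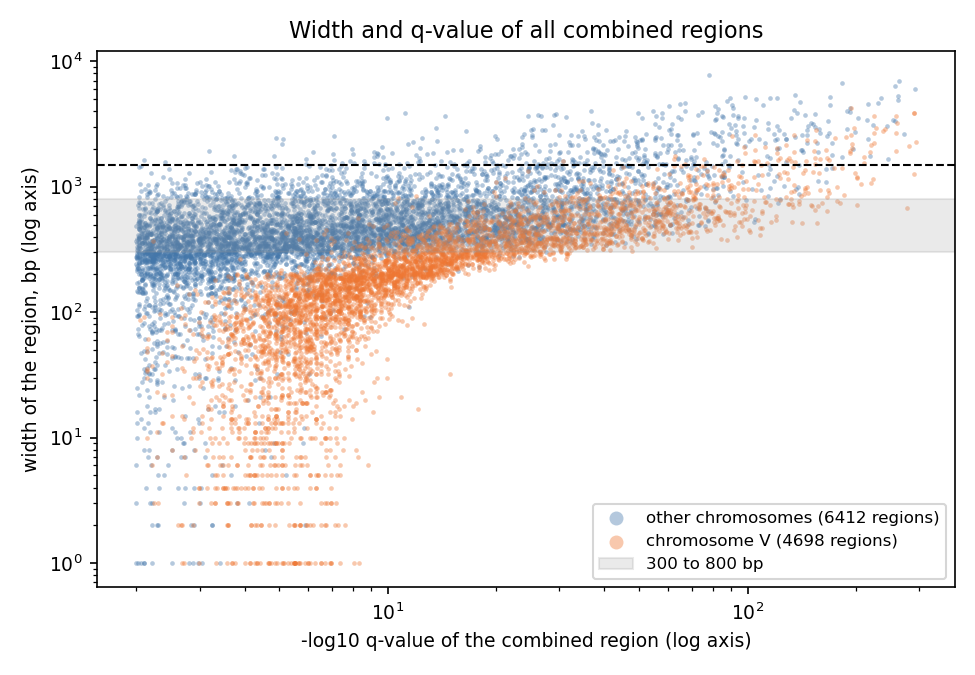
Width in bp (vertical log axis) against -log10 q-value (horizontal log axis) of all 11110 combined regions, with chromosome V in orange, the other chromosomes in blue, a dashed line at 1500 bp and a grey band from 300 to 800 bp. The V points form a narrow band that crosses the dashed line mostly above a -log10 q-value of 100, while the others cross it over the whole range.

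Wide regions of V were also those most often split in the replicates. Several peaks in at least 1 replicate list were found in 49 of the 65 on V (75.4%, 63.7 to 84.2%) and in 128 of the 388 elsewhere (33.0%, 28.5 to 37.8%). The other chromosomes ranged from 22.8% on X (14.9 to 33.2%) to 36.4% on I (26.5 to 47.5%), with III, IV and II in between at 35.1 to 35.8%. The share split in both replicates was 41.5% on V (27 regions) and 11.6% elsewhere (45 regions). A gap was also present at like strength and width: above a -log10 q-value of 100 and between 2000 and 3000 bp, 20 of 23 wide regions on V were split, against 3 of 30 elsewhere. Between 1500 and 2000 bp the numbers were 18 of 27 and 1 of 12, and from 3000 bp up they were 5 of 6 and 15 of 39. From 40 to 100 the intervals overlapped, with 6 of 8 on V (75.0%, 40.9 to 92.9%) and 69 of 145 elsewhere (47.6%, 39.6 to 55.7%). Among regions of 300 to 800 bp, 68 of 1314 on V (5.18%) and 6 of 3799 elsewhere (0.158%) were split. With replicate peaks closer than 500 bp merged first, 10.8% of the wide regions were split on V and 8.25% elsewhere. That merging removed most splits in both groups, and the breaks on V were about as short as those elsewhere. Their median lengths were 260 bp on V and 272 bp elsewhere in replicate 1, and 252 and 296 bp in replicate 2. Why V was split more often was not tested. The contrast and its limits were picked with the values in view, and no test was made.

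Wide regions often had neighbours. The distance from a wide region to the next wide one had a median of 41.1 kb (interquartile range 5.38 to 139 kb), and 244 members (53.9%, 49.3 to 58.4%) had another within 50 kb. Over all combined regions, 37.5% had a wide region other than themselves within 50 kb. Weighted to the q-value classes of the wide regions, that share was 39.7% for regions of 300 to 800 bp without V, against 55.9% of the wide ones (51.0 to 60.8%). On V alone it was 27.1%, against 41.5% (30.4 to 53.7%). The chromosome medians ran from 20.9 kb on II to 64.6 kb on V. At the far end, 8 members lay more than 500 kb from the next, up to 2151 kb for II:42385-44141. Counting combined regions of any width, 288 members (63.6%, 59.0 to 67.9%) had one within 1 kb, against 42.6% of all combined regions. Without V, the share was 60.1% for wide regions (55.1 to 64.8%) and 37.3% for regions of 300 to 800 bp weighted to the same q-value classes. On V alone it was 84.6% (73.9 to 91.4%) and 72.7%.

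Some wide regions formed runs. There were 49 runs with gaps of 5 kb or less, which held 112 members, and the longest runs had 4. No matching share was computed for other regions at this limit, so the count does not show closer spacing than theirs. These longest runs spanned I:6258835-6273736, II:6826424-6845176, IV:11976297-11992385 and IV:15036686-15051213. The run at IV:11976297-11992385 (16.1 kb) holds the widest member, with another wide region of 2576 bp 238 bp before it. Another member of this run, IV:11988632-11990165, was overlapped by replicate 2 only, so strong and weak wide regions lay side by side. The closest pairs were III:5937799-5941711 with III:5941915-5944250 and V:9544118-9545750 with V:9545954-9547856, both 203 bp apart. On III a single replicate 2 peak of 3902 bp overlapped both regions, while on V each replicate kept them apart.

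Along the chromosomes, 184 members (40.6%, 36.2 to 45.2%) lay in the central of 3 equal parts, against 37.0% of all combined regions. The share ran from 25.0% on IV (17.1 to 35.0%) and 30.4% on X (21.3 to 41.2%) to 53.8% on V (41.9 to 65.4%). The narrower regions had 33.1% on IV, 34.5% on X and 42.8% on V, within each of these intervals. The segment of IV between 12 and 15 Mb held 19 of the 88 wide regions of IV and 270 of its 894 regions of 300 to 800 bp. Of these 19 wide regions, 10 were split. The rest of IV held 69 wide regions, of which 21 were split. This contrast was not tested.

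The widest replicate peaks were partly missing from the combined list. Replicate 1 had 320 peaks of 1500 bp or more and replicate 2 had 252. Of these, 292 and 224 overlapped a wide combined region, 4 and 3 only a narrower one, and 24 (7.50%, 5.09 to 10.9%) and 25 (9.92%, 6.81 to 14.2%) none at all. Among narrower peaks, 4.09% of replicate 1 and 4.52% of replicate 2 had no combined region. These shares were not matched by q-value, so they do not separate width from strength. Of the 49 missing wide peaks, 48 overlapped a peak of the other replicate and 45 ranked among the first 100 of their own list. Many of the loci occur in both lists, so the 49 are peaks and not separate loci. The missing peaks lay on V in 16 of 24 cases in replicate 1 and 17 of 25 in replicate 2. V held 15.6% and 17.5% of all wide replicate peaks. The 5 widest were X:6735314-6745985 (10672 bp, replicate 2), I:7079000-7086243 (7244 bp, replicate 2), X:6740409-6745909 (5501 bp, replicate 1), X:6735344-6740138 (4795 bp, replicate 1) and I:9379608-9384389 (4782 bp, replicate 2). The pair from replicate 1 on X lay within the first, so a locus that replicate 2 called as 1 peak was 2 in replicate 1. A combined region lay within 1 kb of 34 of the 49, and the nearest one was between 211 and 5420 bp away with a median of 491 bp. The 453 members are therefore not all wide loci of these samples, and the missing ones include some of the strongest.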

How the data were processed

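The deposited lists name PeakSeq as peak caller and WormBase WS220 as genome build, per the file headers and columns. For every peak the authors deposited a first base, a last base and a q-value under 0.01. The aligner, PeakSeq settings, control reads and the making of the combined list were not given in the sources used here. Without read counts the depth is unknown, so q-values served only for ranks, classes and limits inside one list. In the replicate 2 list, 1 line, disabled by the authors with a coordinate-conversion message, was left out.

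Samples were grouped by their titles. Positions were compared in Python 3.11.15 (NumPy 2.4.6, pandas 2.3.3, SciPy 1.17.1), with plots from Matplotlib 3.10.9. Gaps are the bases between neighbours. Classes of -log10 q-value had limits at 2, 5, 10, 20, 40 and 100, and narrower regions were weighted to the class sizes of the wide ones. Counting, merging and weighting were tested on simulated lists. No significance test was made: the members were chosen by a measured width, and regions are not replicates. Regions were named by a rule (widest overall and per chromosome, smallest q-value, most peaks, those that a replicate lacked, closest pairs, both sides of the width limit, and missing replicate peaks). The members, comparisons and rules were chosen with earlier results of these data known. Alternatives covered width limit, overlap, q-value limit, single replicates, comparison widths, classes, merging, chromosome V and spacing limits.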

Additional observations from a re-analysis of the deposited data

How the results depend on the processing

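Of 68 alternatives to 11 results, 34 stayed within 1.5 times a count or within the interval of a share, and none turned a difference that its interval had set apart from 0. With width limits of 1000 and 2000 bp the number of wide regions was 971 and 254, the share found in both replicates 87.6% and 98.8%, the split share 26.1% and 51.6%, the share with another within 50 kb 74.0% and 35.8%, and the share in the strongest 10% of the list 48.0% and 76.8%. The differences from narrower regions at equal q-value were then 23.6 and 48.8 points for split regions and -39.4 and -60.9 points for V. With q-values of 1e-05 or less in every list, 87.2% were found in both replicates, 26.0% were split (difference 25.6 points), and the split share on V exceeded that elsewhere by 54.2 points. With replicate peaks closer than 500 bp merged, 8.61% were split, and the difference from narrower regions was that whole share, 8.61 points. The narrower regions leave little room for peaks 500 bp apart. With this merging, V exceeded the others by 2.52 points, with an interval of -3.78 to 12.6 that includes 0. Without chromosome V, 33.0% were split. Above a -log10 q-value of 100 alone, V exceeded the others by 53.3 points. Against regions from 800 bp to just under 1500 bp the differences were 23.6 points for split regions and -24.8 points for V, and with 20 classes the V difference was -55.7 points. Limits of 20 and 100 kb gave 38.9% and 68.9% of wide regions with another nearby. With 1 replicate list left out, between 23.8% and 31.1% were split, the difference from narrower regions was 22.8 to 29.2 points, and 24 to 25 wide replicate peaks lacked a combined region. Where a cause is not plain from the setting itself, the cause was not tested. The alternatives to the contrast of V with the others were added after seeing the data. No paired analysis was possible because the Input samples have no list of their own here and no result comes from a test. The unknown depth limits every count of pieces.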
